A study of Mus musculus with 6 samples.

Results

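The enolase genes of native cardiac fibroblasts (CFs) are described here, 5 of the 49548 genes in the count table. They are *Eno1* (ENSMUSG00000063524), its near-identical copies *Eno1b* (ENSMUSG00000059040) and *Gm4735* (ENSMUSG00000064193), and the paralogues *Eno2* (ENSMUSG00000004267) and *Eno3* (ENSMUSG00000060600). The set was chosen from the values of the comparison between CharmeKO and WT itself, in which *Eno1b* and *Gm4735* stood far apart between the groups, so the values of the 5 genes in that comparison are given as a description and without a test. The libraries are poly(A)-selected RNA-seq of 3 WT and 3 CharmeKO samples of CFs from mice aged 5 weeks. The authors describe taking hearts from 3 WT and CharmeKO mice of that age. How many animals each sample holds is not stated in the sources used here. The mice are C57BL/6 J, and CharmeKO animals carry a transcription stop signal (PolyA) inserted into *Charme*, a long noncoding RNA gene, a change that is not limited to fibroblasts. CFs were the cells left after enzymatic dissociation of the heart, lysis of red cells and depletion of hematopoietic cells, and the labels also list a growth medium. The labels give the sex of no animal. The library of CharmeKO replicate 1 held both *Xist*, the RNA that coats the inactive X chromosome in females (13553 counts), and genes of the Y chromosome (136 counts), and whether it holds RNA of more than 1 animal was not tested. Without it the log2 fold changes of CharmeKO over WT were -0.35 for *Eno1*, 6.83 for *Eno1b*, 5.58 for *Gm4735*, 0.06 for *Eno2* and 0.35 for *Eno3*.

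Enolase converts 2-phosphoglycerate into phosphoenolpyruvate, a late step of glycolysis, and works as a dimer. *Eno1* encodes the alpha subunit found in most tissues, *Eno2* the gamma subunit known from neurons and *Eno3* the beta subunit of muscle, which replaces alpha in the heart as the heart matures. A retrocopy is a gene copied back into the genome from a spliced mRNA, so it lacks the introns of its parent, and *Eno1* has many of them. *Eno1b* and *Gm4735* carry the coding sequence of *Eno1* with almost no change. By its bases alone, a fragment of spliced RNA can be assigned to one of the 3 genes only where it covers a base at which they differ.

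The sequences show how little separates *Gm4735* from *Eno1*. The GENCODE M21 annotation used here is of GRCm38, an older assembly than the one the authors name for their alignment. It gives *Gm4735* as a single-exon processed pseudogene of 1302 bases on chromosome 2. The *Eno1* transcript Eno1-202 has 12 exons and 2027 bases on chromosome 4. *Gm4735* aligned without a gap to the whole coding part of *Eno1*, codon 1 to codon 434, with 5 differences and 99.62% identity, and it had 0 stop codons in frame. Counted from 1 at the A of the start codon, with the base of *Eno1* first and that of *Gm4735* last, they were T726C and T816G in exon 8, A1056G in exon 9, and T1224C and C1233T in exon 11. All 5 fell on the last base of a codon. The stretches below are shown because these are the bases by which a read can be told to come from one gene or the other. They run 5′ to 3′ on the strand of each transcript, and the differing bases are in capitals.
Eno1, positions 716 to 736: aggttgtcatTggcatggatg
Gm4735, positions 716 to 736: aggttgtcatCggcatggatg
Eno1, positions 806 to 826: ggtacatcacTcccgaccagc
Gm4735, positions 806 to 826: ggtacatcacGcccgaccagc
Eno1, positions 1046 to 1066: ctgtgaccgaAtccctgcagg
Gm4735, positions 1046 to 1066: ctgtgaccgaGtccctgcagg
Eno1, positions 1214 to 1243: ccaagtacaaTcagatcctCagaattgagg
Gm4735, positions 1214 to 1243: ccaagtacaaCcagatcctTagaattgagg
Upstream of position 726 the coding sequences of *Eno1* and *Gm4735* were identical, up to the start codon.

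*Eno1b*, taken here as a retrocopy, is annotated as protein-coding, and its longest transcript has 2 exons. It aligned to Eno1-202 over 1736 bases without a gap, with 9 differences and 99.48% identity. Of these differences, 8 lay in the coding part and 1 outside it. *Eno1b* carried the same base as *Gm4735* at all 5 positions listed for *Gm4735*, so the bases that separate *Gm4735* from *Eno1* do not separate it from *Eno1b*. Only a part of each transcript could identify its gene, and that part was smallest for *Gm4735*. Of all windows of 100 bases in the longest transcript of each gene, 41.0% of those of *Eno1*, 27.9% of those of *Eno1b* and 16.1% of those of *Gm4735* were absent from the transcripts of the other genes of the 3. With windows of 150 bases the shares were 51.0%, 39.0% and 25.5%, and with windows of 75 bases 34.6%, 21.7% and 10.5%. The read length is not given in the sources used here. The authors' counting by STAR keeps reads that align to a single place. A read that fits more than 1 of the 3 genes equally well is thus counted for none of them. How reads across the exon junctions of *Eno1* were placed was not tested.

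**Figure D1:**
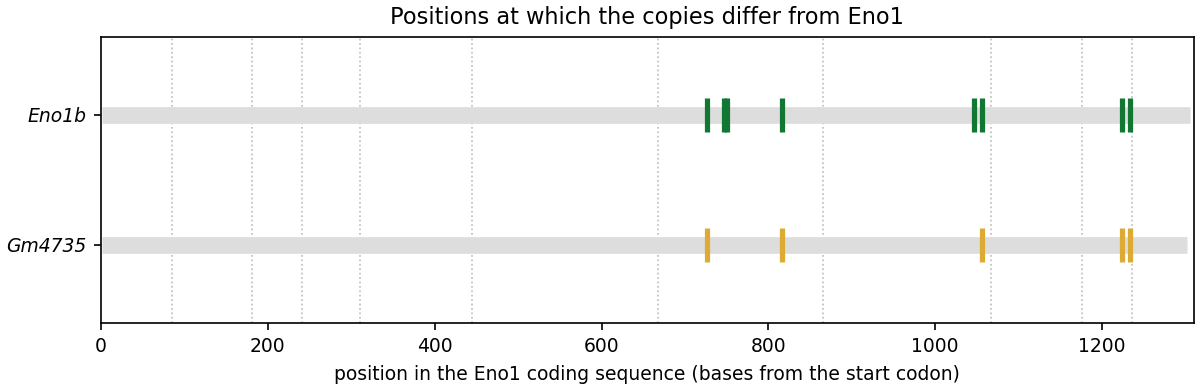
Positions in the coding sequence of *Eno1* (bases from the start codon) at which *Eno1b* and *Gm4735* differ from it, as vertical marks on a grey bar for each copy, with dotted lines at the exon boundaries of *Eno1*. All marks of both copies lie at position 726 or beyond, and each of the 5 marks of *Gm4735* has one of *Eno1b* at the same place.

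*Eno1* was the most abundant of the 5 genes and was lower on average in CharmeKO, with overlapping groups. Its counts were 8370, 3735 and 1625 in the 3 WT libraries and 3789, 3001 and 4402 in the 3 CharmeKO libraries. Scaled to the library total after TMM normalization (CPM), these were 196.8, 142.1 and 174.8 in WT and 132.3, 122.8 and 144.8 in CharmeKO. The highest CharmeKO library lay just above the lowest WT library, and the other CharmeKO libraries lay below every WT library. The group means were 171 ± 27.5 CPM in WT and 133 ± 11.05 CPM in CharmeKO (SD, n = 3), a log2 fold change of -0.36 with a standard error of 0.14.

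Counts assigned to *Eno1b* were close to 0 in WT and far above that in every CharmeKO library. The gene had 10, 4 and 1 counts in WT and 688, 471 and 740 counts in CharmeKO. These are 0.235, 0.152 and 0.108 CPM in WT and 24.0, 19.3 and 24.3 CPM in CharmeKO, and the groups did not overlap. The means were 0.165 ± 0.0647 and 22.5 ± 2.84 CPM (SD, n = 3), a log2 fold change of 6.86 with a standard error of 0.27, or 117-fold. Summed over each group, the level was 0.192 CPM in WT with an exact 95% Poisson interval of 0.107 to 0.317, and 22.8 CPM in CharmeKO with an interval of 21.7 to 23.8, intervals that cover counting error only. Among the 15789 genes tested, *Eno1b* had the 6th highest log2 fold change.

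*Gm4735* followed the same pattern at a lower count. It had 20, 2 and 3 counts in WT and 383, 389 and 413 counts in CharmeKO. These are 0.470, 0.0761 and 0.323 CPM in WT and 13.4, 15.9 and 13.6 CPM in CharmeKO, again without overlap. The means were 0.290 ± 0.199 and 14.3 ± 1.41 CPM (SD, n = 3), with a log2 fold change of 5.52, a standard error of 0.39 and a fold of 45.8, and *Gm4735* had the 15th highest log2 fold change. Of the 25 counts in WT, 20 came from WT replicate 1, the deepest library. Without it the log2 fold change was 6.58.

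**Figure D2:**
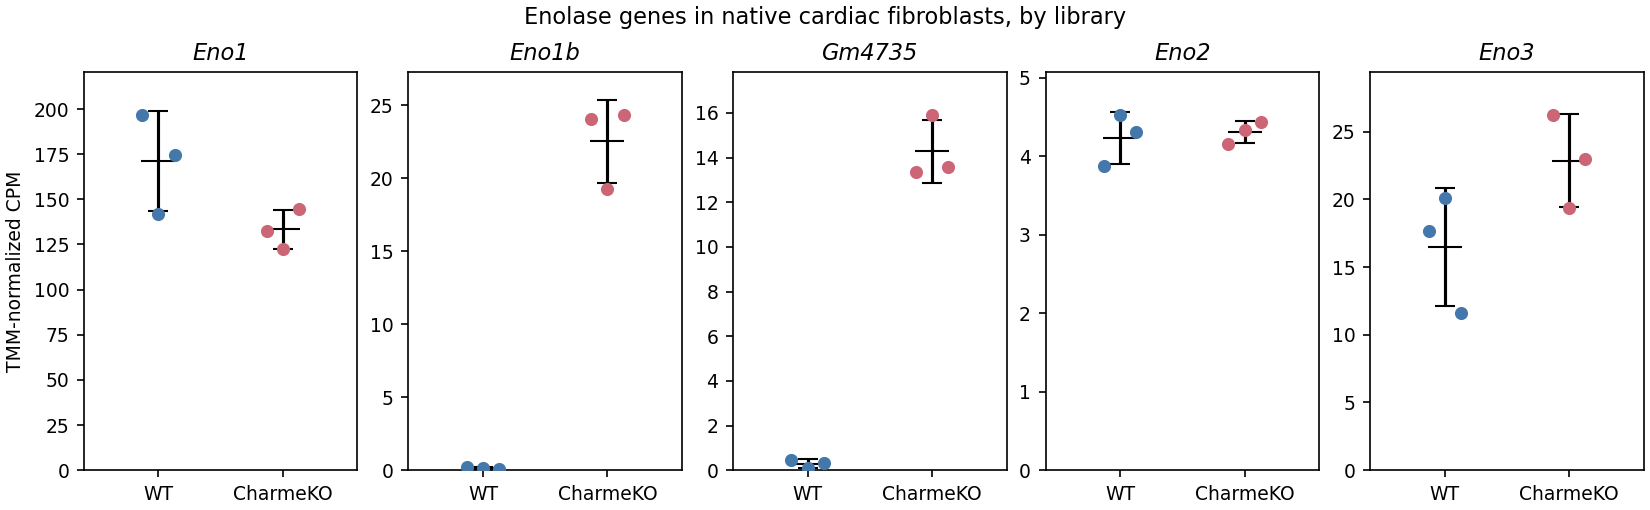
Counts scaled to the library total (CPM, linear axis from 0, 1 panel per gene) of the 5 enolase genes, with 1 point per library, a bar at the group mean and a line for the SD (n = 3). *Eno1b* and *Gm4735* lie near 0 in WT and between 13.4 and 24.3 CPM in CharmeKO, while the groups overlap for *Eno1*, *Eno2* and *Eno3*.

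All 5 enolase genes passed the filter of 10 counts in 2 libraries, *Eno1b* and *Gm4735* by way of CharmeKO, since *Eno1b* reached 10 counts in 1 WT library and *Gm4735* in 1. edgeR called 131 of the 15789 genes at an adjusted p under 0.05, or 0.830% of them, with 66 higher in CharmeKO (0.418%) and 65 lower (0.412%). Of the 5 enolase genes 2 were called, *Eno1b* and *Gm4735*, both higher, in the comparison that had chosen them. The groups did not overlap for 18.2% of all genes tested and for 2 of the 5 enolase genes.

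The differences of *Eno1* and of its copies were of nearly equal size and opposite sign. *Eno1* was 37.9 CPM lower on average in CharmeKO, and *Eno1b* and *Gm4735* together were 36.4 CPM higher. The SD of *Eno1* in WT was 27.5 CPM. The part of the transcript in which a read can be assigned differs between the 3 genes, so equal CPM need not be equal amounts of transcript. The sum of the 3 genes was 197.5, 142.3 and 175.2 CPM in WT and 169.8, 158.0 and 182.7 CPM in CharmeKO. Every CharmeKO library thus lay within the range of the WT libraries. The means of the sum were 172 ± 27.8 CPM in WT and 170.1 ± 12.4 CPM in CharmeKO (SD, n = 3), a difference of -1.54 CPM, which is smaller than the SD of either group. In reads of this kind, fewer cells that contain a transcript and less of it per cell cannot be told apart. Whether reads from one of the 3 genes were counted for another was not tested.

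The copies made up a similar share of the 3 genes in every CharmeKO library. *Eno1b* and *Gm4735* together held 0.357%, 0.160% and 0.246% of the summed counts in WT, and 22.0%, 22.3% and 20.8% in CharmeKO. The exact 95% binomial intervals of the 3 CharmeKO libraries reached from 19.7% to 23.6% in all, and they cover counting error only. The mean share was 0.254% ± 0.0987 in WT and 21.7% ± 0.817 in CharmeKO (SD, n = 3). The ratio of *Eno1b* to *Gm4735* counts was 1.80, 1.21 and 1.79 in the CharmeKO libraries. In WT it was 0.5, 2 and 0.333, on 1 to 20 counts of each gene.

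**Figure D3:**
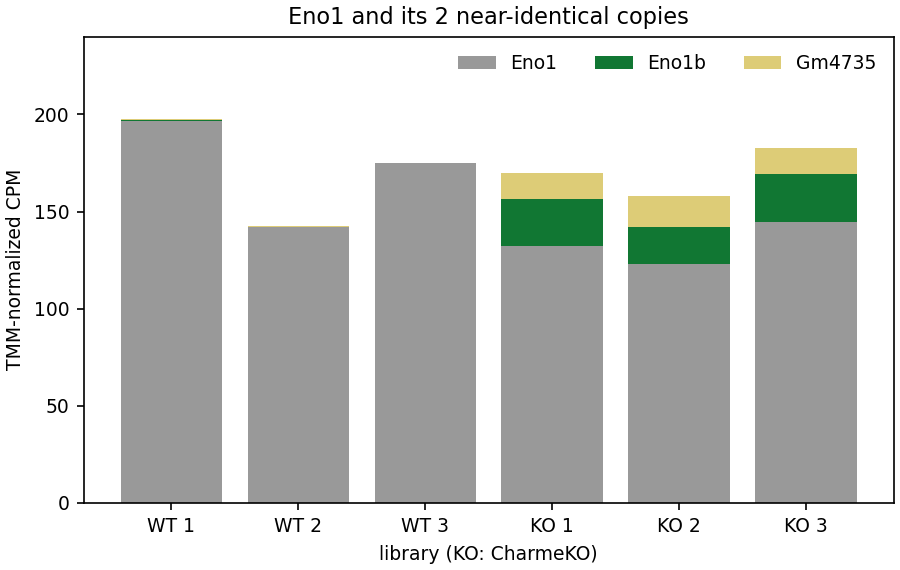
Stacked bars of *Eno1*, *Eno1b* and *Gm4735* (CPM, linear axis from 0) in each of the 6 libraries. The 3 CharmeKO bars reach 169.8, 158.0 and 182.7 CPM, within the range of the WT bars (142.3 to 197.5), and the *Eno1b* and *Gm4735* segments are hardly visible in WT.

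The comparison was also made within libraries alike in *Xist*. WT replicate 1 and CharmeKO replicates 1 and 2 had 9196 to 16783 counts of *Xist*. WT replicates 2 and 3 and CharmeKO replicate 3 had 67, 0 and 9 counts of it and 886 to 2967 counts of Y genes. CharmeKO replicate 1, with counts of both, was placed with the first set. The log2 ratio of CharmeKO over WT was 6.52 among the *Xist* libraries and 7.55 among the others for *Eno1b*, and 4.96 and 6.09 for *Gm4735*. For *Eno1* it was -0.63 and -0.13. For the sum of *Eno1*, *Eno1b* and *Gm4735* it was -0.27 among the *Xist* libraries and 0.20 among the others, so its sign differed between the sets. One group of each set is a single library, and no test was made.

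Other retrocopies of *Eno1* were close to 0 in both groups. Besides *Gm4735*, the annotation holds 16 processed pseudogenes that aligned to Eno1-202, and 11 of these were found in the count table, with identities to *Eno1* between 75.3% and 96.3%. Only 3 of the 11 had any count, and the highest count of one of them in one library was 3. *Gm5855*, the closest to *Eno1* of those, had 1, 0 and 0 counts in WT and 1, 3 and 2 counts in CharmeKO. Counts of the other 5 pseudogenes were not analysed here. *Eno1b* and *Gm4735* were therefore the copies with more than 3 counts in a library, and they were also the copies with the highest identity to *Eno1*.

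**Figure D4:**
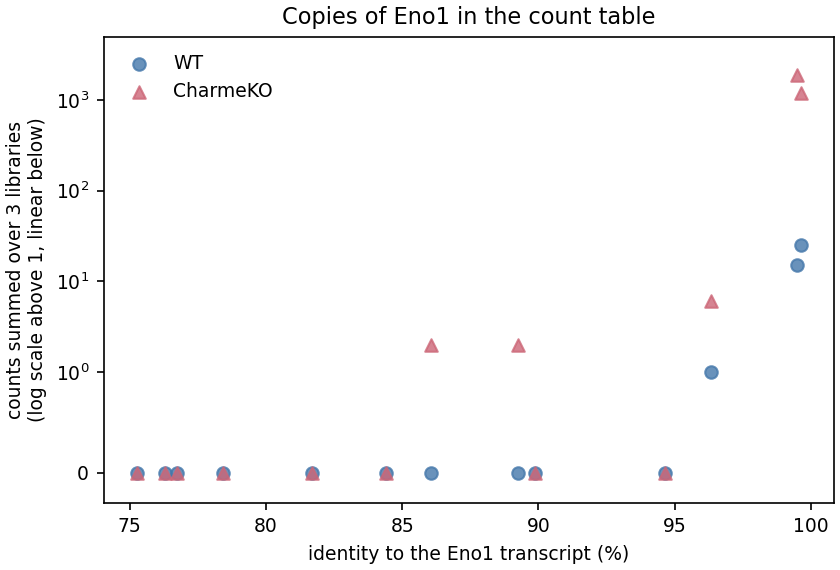
Counts summed over the 3 libraries of each group (vertical axis, logarithmic above 1 and linear below) against identity to Eno1-202 (percent) for the retrocopies of *Eno1* found in the count table, with circles for WT and triangles for CharmeKO. *Eno1b* and *Gm4735*, at 99.48% and 99.62% identity, stand apart from the 11 other pseudogenes, which hold 11 counts in all libraries together.

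The bases at which *Gm4735* differs from *Eno1* were also looked up in the sequences of all 16 other pseudogenes. Over the pseudogenes aligned at each position there were 59 pairs of pseudogene and position, of which 17 had the base of *Eno1*, 31 the base of *Gm4735* and 11 another base. At T1224C all 11 aligned pseudogenes had the base of *Eno1*, at A1056G 11 of 13 had that of *Gm4735*, and at C1233T 10 of 11 had that of *Gm4735*. T1224C was the only one of the 5 at which *Gm4735* differed from every other processed pseudogene aligned there.

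*Eno3*, the muscle enolase, was higher on average in CharmeKO with overlapping groups. It had 17.7, 20.1 and 11.6 CPM in WT and 26.2, 19.4 and 23.0 CPM in CharmeKO. CharmeKO replicate 2 lay below WT replicate 2, and the other CharmeKO libraries lay above every WT library. The means were 16.5 ± 4.36 and 22.9 ± 3.44 CPM (SD, n = 3), a log2 fold change of 0.45 with a standard error of 0.19. Cardiomyocyte markers moved in the same direction. All 12 had a higher mean in CharmeKO. DESeq2 called 6 of them and edgeR 3, where edgeR called 0.830% of all genes tested. The groups did not overlap for 8 of the 12, all higher, beside 18.2% of all genes tested in either direction. Their summed level was 428 to 529 CPM in WT and 614 to 930 CPM in CharmeKO, without overlap. Those that passed edgeR's test were *Tnni3*, the cardiac troponin I gene, with 25.2 to 32.0 CPM in WT and 42.0 to 63.9 CPM in CharmeKO (log2 fold change 0.95, edgeR adjusted p = 0.0200), *Mb*, which encodes myoglobin (0.90, edgeR adjusted p = 0.0339), and *Myh6*, the gene of the alpha myosin heavy chain (0.85, edgeR adjusted p = 0.0292). The part of cardiomyocyte RNA in the *Eno3* values was not tested.

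*Eno2*, the neuronal enolase, was the gene whose groups differed least. It had 3.88, 4.53 and 4.30 CPM in WT and 4.16, 4.34 and 4.44 CPM in CharmeKO. The means were 4.24 ± 0.329 and 4.31 ± 0.144 CPM (SD, n = 3), a log2 fold change of 0.03 with a standard error of 0.23, and every CharmeKO library lay within the WT range. Neuronal and Schwann cell markers summed to 32.0 to 43.8 CPM in WT and 28.1 to 35.6 CPM in CharmeKO, overlapping, with 3 of the 12 (*Snap25*, *Chga* and *Th*) at 0 in every library. Of the 8 tested, edgeR and DESeq2 called 0, with 1 at an unadjusted p under 0.05, which 12.8% of all genes tested had. Their part in the *Eno2* values was not tested.

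Levels can be compared between genes only per length, and here the CPM were divided by the merged exon length of each gene in GENCODE M21. The order in WT was *Eno1* with 31.8 ± 5.12 CPM per kilobase, *Eno3* with 9.46 ± 2.51, *Eno2* with 0.900 ± 0.0699, *Gm4735* with 0.222 ± 0.153 and *Eno1b* with 0.0879 ± 0.0345 (SD, n = 3). Only *Gm4735* and *Eno1b* overlapped among neighbours in that order. In CharmeKO *Eno1* stood first with 24.8 ± 2.05 CPM per kilobase, followed by *Eno3* with 13.1 ± 1.98, *Eno1b* with 12.0 ± 1.52, *Gm4735* with 10.98 ± 1.08 and *Eno2* with 0.916 ± 0.0306. *Eno3*, *Eno1b* and *Gm4735* overlapped in CharmeKO. The copies therefore moved from the end of the order to a level near that of *Eno3*, above *Eno2* in each CharmeKO library. The merged exons of *Eno1* hold 5379 bases, beside 2027 in its longest transcript. Divided by the longest transcript, the order was the same in both groups. *Eno1* then had a mean of 65.8 CPM per kilobase in CharmeKO, *Eno3* 14.6, *Eno1b* 12.6, *Gm4735* 10.98 and *Eno2* 1.54. Dividing by whole exon length makes no allowance for the smaller part of *Eno1b* and *Gm4735* in which a read can be assigned to a single gene.

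Of the genes beside the 5 enolases on the chromosomes, none passed edgeR's test. Of 50 neighbours, 5 on each side of each gene, 22 were tested and edgeR called 0, with 3 at an unadjusted p under 0.05, a cut that 12.8% of all genes tested passed, while DESeq2 called 1 of them. That one was *Rere*, a transcriptional corepressor gene next to *Eno1*, with 252, 329 and 279 CPM in WT and 218, 178 and 221 CPM in CharmeKO, without overlap (log2 fold change -0.48, edgeR adjusted p = 0.191). The lowest unadjusted p among the neighbours was that of *Cdca3*, a cell division gene beside *Eno2*, with 7.78, 0.951 and 11.3 CPM in WT and 1.22, 1.02 and 1.71 CPM in CharmeKO (log2 fold change -2.29, edgeR adjusted p = 0.178), and WT replicate 2 lay below every CharmeKO library. Without that library it was called, at an edgeR adjusted p of 0.000657. The nearest tested genes on either side of *Eno1b* were *Sema6a*, a semaphorin gene, with a log2 fold change of -0.06, and *Dtwd2* with -0.02, and both overlapped between the groups. *Nup35*, a nuclear pore gene and the nearest tested gene to *Gm4735*, had 0.00, and on its other side none of the 5 genes was high enough to test. Beside *Eno2* the values were -0.40 (*Atn1*) and -0.84 (*Lrrc23*), and beside *Eno3* they were -0.22 (*Pfn1*, the gene of the actin-binding protein profilin) and 0.11 (*Spag7*). The enolase genes lie on chromosome 4 (*Eno1*), 18 (*Eno1b*), 2 (*Gm4735*), 6 (*Eno2*) and 11 (*Eno3*), so *Eno1* and its copies share no neighbourhood.

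Over the 6 libraries of both groups, the copies correlated with each other and inversely with *Eno1*. On the log2(CPM + 1) scale, Pearson's r was 0.994 between *Eno1b* and *Gm4735*, -0.73 between *Eno1* and *Eno1b*, and -0.72 between *Eno1* and *Gm4735*. These coefficients describe 6 libraries in 2 groups. They are set mainly by the distance between the groups, from which the genes were chosen. Within CharmeKO, *Eno1b* had 24.0, 19.3 and 24.3 CPM and *Gm4735* 13.4, 15.9 and 13.6. The lowest *Eno1b* value and the highest *Gm4735* value were both in replicate 2. *Eno1* had 132.3, 122.8 and 144.8 CPM there, lowest and highest in the same libraries as *Eno1b*. Among the genes most like *Eno1b* were *Cyp4a10* (r = 0.999), *Gm8741* (0.999), *Sgce* (0.997) and *Uqcrq* (0.995). *Gm8741* had 8, 3 and 0 counts in WT and 445, 366 and 499 counts in CharmeKO. *Uqcrq*, a subunit gene of respiratory complex III, was in contrast well detected in every library, with 353 to 1831 counts in WT and 1773 to 2398 in CharmeKO. Those most like *Eno1* were *Cfap45* (0.993), *Rab11b-ps2* (0.990), *Nnat* (0.986), *Matn4* (0.985) and *Tedc1* (0.981).

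Of the other enzymes of glycolysis, 1 passed the test, and their differences fell on both sides of 0. Of 25 listed genes 17 were tested, 8 with a higher and 9 with a lower mean in CharmeKO, and their median log2 fold change was -0.07, beside 0.01 over all genes tested. edgeR called 1 of the 17, beside 0.830% of all genes tested. By edgeR 3 had an unadjusted p under 0.05, a cut that 12.8% of all genes tested passed. The groups did not overlap for 1 higher and 3 lower genes of the 17, beside 18.2% of all genes tested in either direction. *Hk2*, a hexokinase that opens the pathway, was the only one to pass edgeR's test, and it was lower. It had 100.5, 82.8 and 116.0 CPM in WT and 48.0, 40.1 and 67.9 CPM in CharmeKO, without overlap (log2 fold change -0.94, standard error 0.19, adjusted p = 0.0448). That call was lost without WT replicate 1, WT replicate 3, CharmeKO replicate 1 or CharmeKO replicate 2, with adjusted p from 0.134 to 0.252 by edgeR. *Hk3*, a hexokinase of blood cells, had 21, 14 and 4 counts in WT and 4, 0 and 0 in CharmeKO and did not pass (log2 fold change -3.25, edgeR adjusted p = 0.269). The 4 most abundant of the list did not pass either. *Gapdh* had a mean of 705 CPM in WT and 620.1 in CharmeKO (log2 fold change -0.18), *Aldoa* 440.3 and 414 (-0.09), *Pkm*, the pyruvate kinase that uses the product of enolase, 362 and 395 (0.12), and *Ldha* 337 and 371 (0.14).

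**Figure D5:**
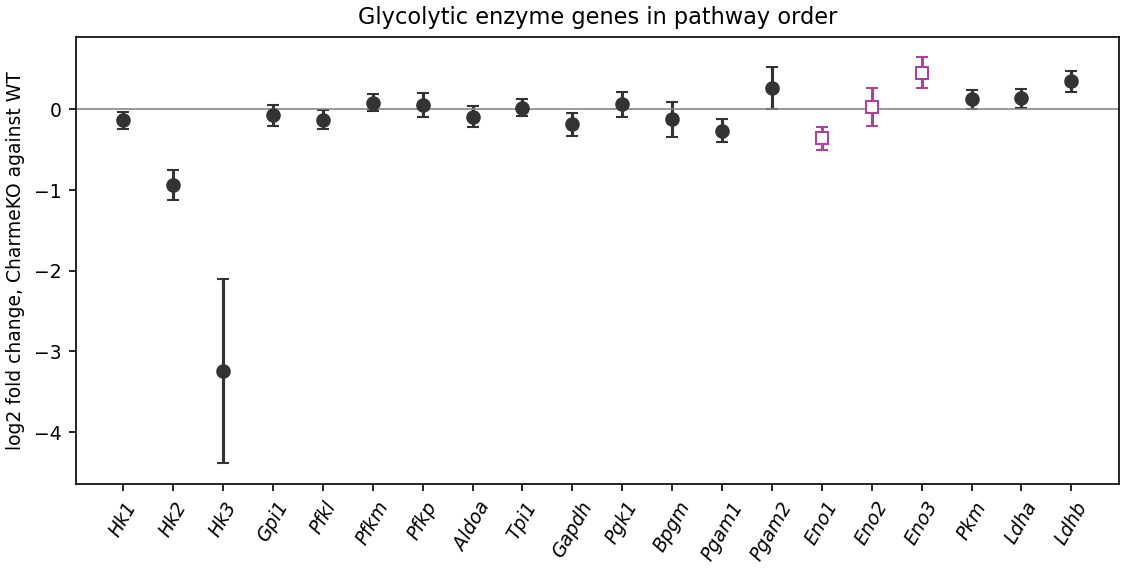
Log2 fold change of CharmeKO over WT (vertical axis, with bars of ± 1 standard error from edgeR) for the 17 glycolytic enzymes tested (filled circles) and for *Eno1*, *Eno2* and *Eno3* (open squares), in the order of the pathway. Of the circles 8 lie above 0 and 9 below, with *Hk2* (-0.94) called by edgeR and *Hk3* (-3.25) lower but not called.

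The genes that govern glycolysis were looked up in the same way, together with the plasminogen system, since enolase on the cell surface is known to bind plasminogen. The 4 lists held glucose and lactate transport with the regulators of glycolysis, the HIF and Myc regulators, the HIF targets outside glycolysis, and the plasminogen system. Of 51 genes tested in these 4 lists edgeR called 0 and DESeq2 0, with 6 at an unadjusted p under 0.05, beside the 12.8% of all genes tested that passed this cut, and 23 had a higher and 28 a lower mean in CharmeKO. Among the transport and regulator genes, *Txnip*, which restrains glucose uptake, had a mean of 1007 CPM in WT and 1305 in CharmeKO (log2 fold change 0.37), *Bsg*, the chaperone of lactate transporters, 275.5 and 300.3 (0.12), *Pfkfb3* 158 and 127 (-0.32) and *Pdk2* 33.1 and 30.5 (-0.12). Among the HIF and Myc regulators, *Epas1* had 1628 and 1750 CPM (0.10), *Myc*, a known activator of *Eno1*, 178 and 150.1 (-0.24), *Egln1* 172 and 189 (0.14) and *Arnt* 100.8 and 87.6 (-0.20). Among the HIF targets, *Ndrg1* had 193 and 238 CPM (0.31), *Bnip3l* 174 and 185 (0.09), *Vegfa*, the gene of vascular endothelial growth factor A, 133 and 97.3 (-0.45) and *P4ha1* 117 and 129.6 (0.14). In the plasminogen system, *Anxa2* had 328 and 313 CPM (-0.07), *S100a10* 219.8 and 229.5 (0.06) and *Plat*, a plasminogen activator, 169 and 167 (-0.02). Of the genes named here, *Arnt* and *Vegfa* were lower and *Ndrg1* higher in CharmeKO without overlap. By list, the groups did not overlap for 2 of the 18 transport and regulator genes tested, both lower. In the HIF and Myc list this held for 1 higher and 1 lower gene of 13. In the HIF target list it held for 1 higher and 1 lower of 11, and in the plasminogen list for 0 of 9. Over all genes tested the share was 18.2%, in one direction or the other. The other named copies of glycolytic genes in the table, 10 in all, were too low to be tested.

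For the data as a whole, total counts per library ran from 9595701 to 42101393. *Charme* had 26, 15 and 4 counts in WT and 7, 0 and 0 in CharmeKO. Of 8 lists of cell type markers, 6 overlapped between the groups in their summed level. Among them was the fibroblast list, whose 10 genes were all tested, with 39959 to 42711 CPM in WT and 32981 to 41267 in CharmeKO. *Gsn* alone held 17340 to 26456 CPM of it in WT. edgeR called 0 of the 10 and DESeq2 1. By edgeR 3 were lower and 1 higher at an unadjusted p under 0.05, which 12.8% of all genes tested had. Erythroid markers, also overlapping, summed to 26796 to 39250 CPM in WT, and endothelial markers to 5698 to 6957. The 2 lists that separated were the cardiomyocyte markers, described beside *Eno3*, and the epicardial markers, with 57.8 to 74.99 CPM in WT and 34.0 to 41.4 in CharmeKO.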

How the data were processed

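The authors filtered Illumina reads by quality, aligned them with STAR to the GRCm39 assembly and counted reads per gene in the reverse strand configuration, on an Ensembl annotation edited to include *Charme*. These raw counts were deposited without normalization or filtering. A gene was tested where 2 or more libraries had 10 or more counts. Counts were scaled by TMM and compared by the quasi-likelihood test of edgeR 4.0.16 in R 4.3.3 (limma 3.58.1), with Benjamini-Hochberg adjusted p-values, a threshold of 0.05 and standard errors from the F statistics. DESeq2 1.42.0, other size factors, other filters or none, a replicate block, leaving out each library and an *Xist*-based term, which was added after seeing the data, were the alternatives. The script was tested on simulated data. The authors state that their experiments used independent primary cell isolations. Whether the samples of a group came from separate litters is not given. The p-values measure the spread between these libraries. The members and gene lists were chosen with earlier results of these data known. Named genes are the members, the list members called, otherwise the 4 most abundant of each list, the nearest tested neighbours and the 5 genes most like *Eno1b* and *Eno1*. Some genes that this rule names are not reported here. *Gm5855*, *Hk3*, *Cdca3* and *Plaur* were chosen after their values were seen. Retrocopies were aligned with blastn 2.17.0 to GENCODE M21 transcripts (GRCm38), which also gave chromosomes, exon lengths and neighbours. Figures were drawn with matplotlib 3.10.9. A count of 0 allows up to 3 counts, or between 0.0705 and 0.323 CPM by library, for counting error only.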

Additional observations from a re-analysis of the deposited data

How the results depend on the processing

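Leaving out 1 library at a time moved the log2 fold change of *Eno1b* between 6.72 and 7.29, and that of *Gm4735* between 5.02 and 6.58. The number of genes called in all was 131, and it was 394 with DESeq2, 699 with no gene filter and 302 with the replicate block. Leaving out 1 library gave 61 (without CharmeKO replicate 1) to 349 (without WT replicate 2) genes called, among them 0 to 1 of the glycolytic enzymes, 0 to 1 of the genes of the transport, regulator, HIF target and plasminogen lists and 0 to 1 of the neighbours. DESeq2 called 1 neighbour, and no gene filter called 2 neighbours (*Rere* and *Cdca3*) and 2 genes of those 4 lists (*Vegfa* and *Plaur*). The *Xist* term left 0 glycolytic enzymes called, with *Hk2* at an edgeR adjusted p of 0.0597. The log2 ratio of the summed *Eno1*, *Eno1b* and *Gm4735* counts was -0.01, it ran from -0.13 to 0.10 when 1 library was left out, and it was -0.27 within the *Xist* libraries and 0.20 within the others. The cause of these differences was not tested. Replicate numbers were shared between the groups without pairing the libraries, since the correlations of their deviations were 0.216, 0.0535 and 0.161, although every library correlated best with its own number, a hint from the data and not from the design. Counts below about 30 in WT limit the folds of *Eno1b* and *Gm4735*.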
